A study of Mus musculus with 1047 samples.

Results

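The cells described here are the columns of the ApoeKO droplet table whose names start with neither L7_ nor L8_. They number 11224 of the 13954 cells of that table and of the 35151 cells in both droplet tables of the series. Their names consist of a cell barcode and an ending, and only the endings _2 (5766 cells) and _4 (5458 cells) occurred, so the cells fell into 2 column groups. The other columns of the table carry the prefix L7_ (1085 cells) or L8_ (1645 cells) and serve here for comparison, as do the 21197 cells of the table of aged wild type brains.

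The study examined microglia of white and grey matter in aging mice. Its labels list 4 droplet libraries titled ApoeKO, all of white matter from male mice of strain B6.129P2-Apoetm1Unc/J aged 18 months, with 2 mice pooled per library, and name the ApoeKO table as their processed data. They list 5 aged libraries titled wild type for the other table, 3 of grey and 2 of white matter from male C57BL/6J mice aged 24 months in pools of 3 to 4, and 1 of these, a white matter library, carries the genotype ApoeKO against its title. Cells were captured on the 10x platform after dissociation with actinomycin D (45 µM), a blocker of transcription, and after removal of myelin with beads, and no sort was named. No column name can be tied to a library, so neither ending can be given a genotype, an age or an animal, and each ending is 1 group of cells without replicates. No test between endings is therefore possible. Intervals below are exact 95% intervals that cover counting error only, since cells of 1 library are not independent replicates.

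Apoe encodes apolipoprotein E, the main lipid carrier of the brain, which astrocytes supply and which microglia make in larger amounts when they respond to lipid debris, demyelination or amyloid. The cells that do so lose genes of the resting state such as P2ry12, a purine receptor that steers microglial processes, and gain genes such as Spp1, which encodes the secreted protein osteopontin. The ApoeKO strain carries an altered Apoe allele, and the labels do not say which stretch of the gene is changed. A droplet count reads the 3′ end of a transcript, so it need not fall to 0 in such a strain.

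None of the 11224 cells was a copy of a cell of the aged table. Over the 20111 gene symbols that both tables list, 63 cells (30 of ending _2 and 33 of ending _4) shared a barcode with a cell of the aged table. Identical counts were found for 0 cells, whatever the barcode, and 0 cells reached a correlation of 0.99 of their log counts with the cell of the same barcode. At shared barcodes the correlation ran between 0.0938 and 0.681, with a median of 0.409. Between the endings 8 barcodes were shared, with 0 identical profiles and a highest correlation of 0.641. By these comparisons the endings held no cell of the aged table, and no cell of one ending recurred at the same barcode in the other.

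The endings were close in depth, and the share of microglia was slightly higher in ending _2, by more than counting error. The median was 5683.5 UMIs per cell in ending _2 and 6156 in ending _4, against 4740 in L7 and 3272 in L8. Counted as microglia were cells with at least 30 UMIs per 10000 of P2ry12, Cx3cr1 (the fractalkine receptor) and Trem2 (a lipid-sensing receptor) together. They numbered 3556 cells in ending _2, or 61.7% (60.4 to 62.9), and 3196 cells in ending _4, or 58.6% (57.2 to 59.9). These shares exceeded the 30.0% of L7 and the 44.2% of L8, and the range over the 5 column groups of the aged table was 47.9% to 59.0%. Few cells lay near the limit, with 117 cells of ending _2 and 87 of ending _4 between 25 and 35 UMIs per 10000. Tmem119 and Csf1r, microglial markers that the rule did not use, stood at 9.48 and 29.4 UMIs per 10000 in microglia of ending _2 and at 9.75 and 31.0 in those of ending _4. The label of microglia thus had its markers in both endings.

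Apoe was the gene in which the 2 endings differed most. Over all cells its summed level was 0.113 UMIs per 10000 (0.103 to 0.124) in ending _2 and 70.7 (70.5 to 71.0) in ending _4. Among microglia, 78 Apoe UMIs gave 0.0332 per 10000 (0.0263 to 0.0415) in ending _2, and 180046 UMIs gave 79.3 (78.9 to 79.7) in ending _4. The level in ending _2 was 2387-fold lower, a log2 ratio of -11.22 (-11.56 to -10.90). The prefixed columns showed the same split, with 0.0544 UMIs per 10000 in microglia of L7 (9 UMIs) and 61.5 in those of L8, 1130-fold lower in L7. The labels title all 4 libraries of the table ApoeKO, and 2 of its 4 column groups held Apoe in microglia at 61.5 and 79.3 UMIs per 10000. Which libraries these are cannot be told from the column names, and Apoe was not used here to name any group.

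The 5 column groups of the aged table all held Apoe in microglia, at 11.4, 13.5, 237, 270 and 14.4 UMIs per 10000 for the endings _1_1, _1_2, _2_1, _2_2 and _3. In the order of levels, ending _2 and L7 stood lowest with overlapping intervals, the aged endings _1_1, _1_2 and _3 followed, then L8 and ending _4, and the aged endings _2_1 and _2_2 stood highest. Ending _4 thus lay above 3 and below 2 of the aged column groups.

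**Figure D1:**
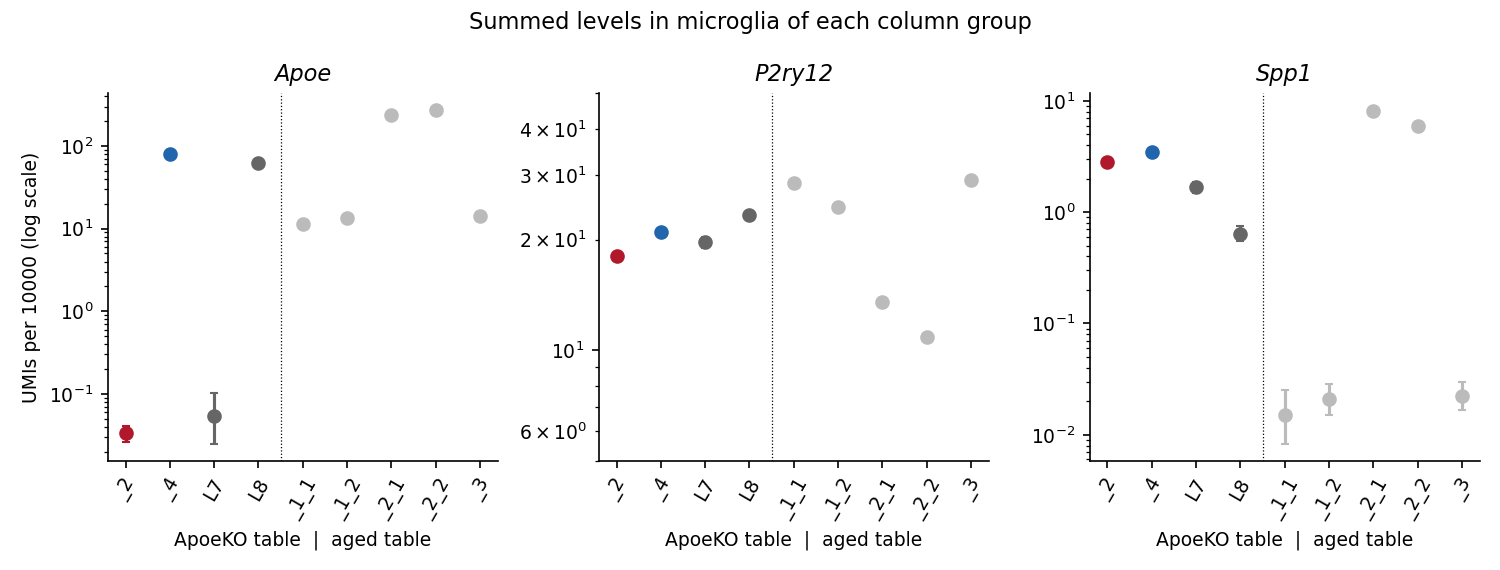
Summed UMIs per 10000 (log scale) of Apoe, P2ry12 and Spp1 in microglia of each column group, with exact Poisson 95% intervals; ending _2 is red, ending _4 blue, L7 and L8 dark grey and the aged table light grey. Apoe of ending _2 (0.0332) and L7 (0.0544) stands far below every other column group, whereas P2ry12 of ending _2 (18.1) and ending _4 (20.9) lies between the extremes of the aged table.

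Single cells followed the sums. An Apoe UMI was found in 67 of 3556 microglia of ending _2, or 1.88% (1.46 to 2.39), and in 2894 of 3196 microglia of ending _4, or 90.6% (89.5 to 91.5). With every cell thinned to 1000 UMIs, which left out 69 cells of ending _2 and 48 of ending _4, the shares were 0.459% and 62.5%. The highest count in a microglial cell of ending _2 was 4 UMIs.

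Within ending _4, Apoe spread widely over microglia. The 10th percentile was 0.963, the median 11.5 and the 90th percentile 170 UMIs per 10000 of a cell, and the highest cell held 2451 Apoe UMIs. Between 3 and 10 UMIs per 10000 lay 23.1% of these cells, whereas 5.04% held from 300 to 1000 and 0.375% held more. A minority of microglia with very high levels therefore carried much of the Apoe of ending _4, and the mean of the per-cell levels, 65.9, was lower than the level of the sum.

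**Figure D2:**
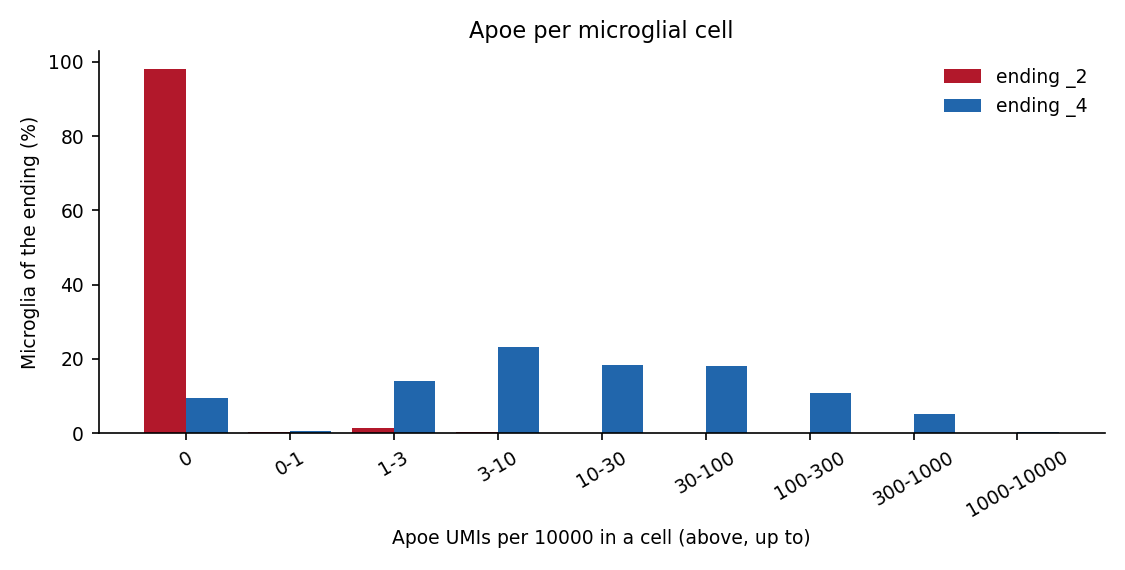
Percent of the microglia of each ending (bars, ending _2 red, ending _4 blue) by Apoe UMIs per 10000 of the cell; each bin runs from above its first to its second value. In ending _2, 98.1% of microglia held 0 Apoe UMIs, against 9.45% in ending _4, whose cells spread over bins up to 1000 and more.

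Free RNA in droplets gives some UMIs to every cell, so cells high in T cell markers, which should lack Apoe, served as background. Cells outside the microglia were assigned to the marker list that was highest in them, where at least 3 of its genes were detected and it reached 30 UMIs per 10000. In T cell marker cells an Apoe UMI was found in 2 of 258 cells of ending _2, or 0.775% (0.0940 to 2.77), and in 102 of 148 cells of ending _4, or 68.9% (60.8 to 76.3). Their median depths were 4921 and 5668 UMIs, against 6126.5 and 6490 in microglia of endings _2 and _4. For ending _2 the microglial share of 1.88% lay inside the interval of this background, so it is not read as expression. In ending _4 the background share was high, whereas the summed level of 2.55 UMIs per 10000 in T cell marker cells was far below the 79.3 of microglia.

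Of the 6 other classes with at least 100 cells per ending, astrocyte marker cells and ependymal marker cells held the most Apoe in ending _4, and in ending _2 these classes kept a small remainder. Astrocyte marker cells, of the class that supplies most apolipoprotein E in the brain, held 1.12 UMIs per 10000 (0.951 to 1.31) in 338 cells of ending _2 and 173 (171 to 175) in 450 cells of ending _4. Ependymal marker cells, which line the ventricles, held 0.289 (0.240 to 0.345) in 355 cells and 109 (107 to 110) in 280 cells. Endothelial marker cells held 0.469 (0.333 to 0.641) in 104 cells of ending _2 and 15.3 (14.8 to 15.8) in 205 cells of ending _4.

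In ending _2, choroid plexus and neuron marker cells stood near the background. Choroid plexus marker cells, the epithelium that secretes cerebrospinal fluid, held 0.0146 (0.00474 to 0.0341) in 506 cells of ending _2 and 24.6 (24.1 to 25.1) in 371 cells of ending _4. Neuroblast and neuron marker cells held 2 UMIs, or 0.0240 per 10000, in 145 cells of ending _2 and 3.08 (2.87 to 3.30) in 358 cells of ending _4, close to the 2.55 of T cell marker cells. Border-associated macrophage markers, of the macrophages along vessels and meninges, were highest in only 7 cells of ending _2, with 2.80 Apoe UMIs per 10000 (0.909 to 6.53), and in 6 cells of ending _4, with 596 (569 to 625). In ending _2, astrocyte, ependymal and endothelial marker cells therefore differed from T cell marker cells (0.0215, 0.00444 to 0.0629) by more than counting error. The source of these UMIs was not tested. The border-associated macrophage level of ending _2 rests on 5 UMIs in 2 of the 7 cells. Its interval does not cover UMIs that cluster in single cells, so no difference is read from it. For the 6 classes plotted beside microglia, the 10 leading genes by fold held between 2 and 7 markers of the own list and 0 of any other.

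**Figure D3:**
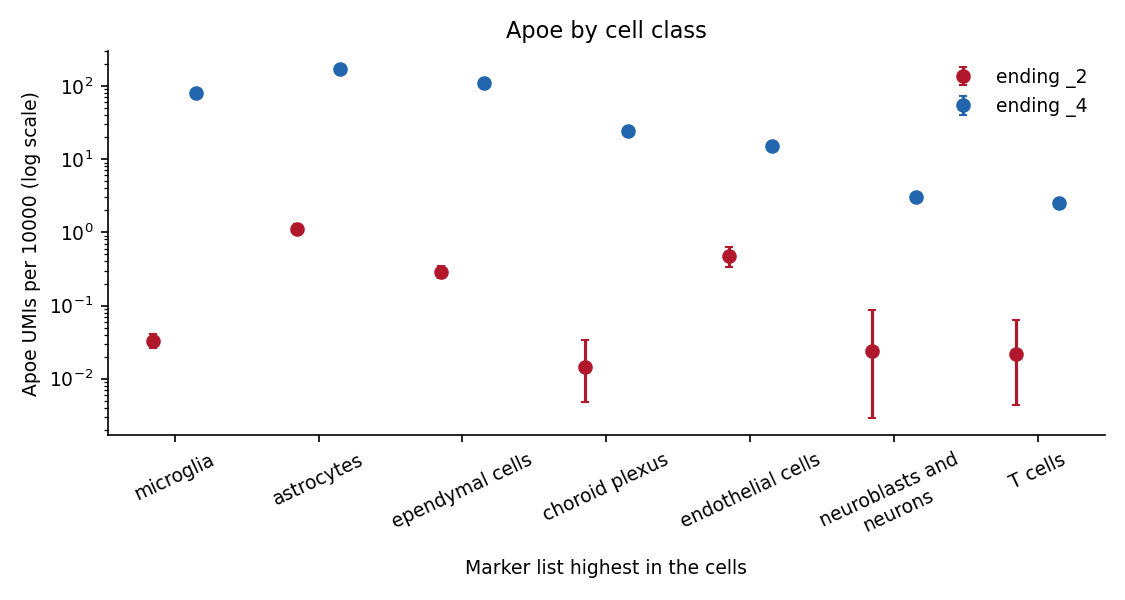
Apoe UMIs per 10000 (log scale) in microglia and in cells grouped by their highest marker list, ending _2 in red and ending _4 in blue, with exact Poisson 95% intervals. Ending _2 lies below ending _4 in all 7 classes, with its highest value in astrocyte marker cells (1.12 against 173).

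P2ry12 differed little between the endings. In microglia it stood at 18.1 UMIs per 10000 (17.9 to 18.2) in ending _2 and at 20.9 (20.8 to 21.1) in ending _4, a log2 ratio of -0.21 (-0.23 to -0.20), and in L7 and L8 at 19.6 and 23.4. In a typical cell the median was 17.8 UMIs per 10000 in ending _2 and 21.0 in ending _4. The aged table ran from 10.8 and 13.5 in its endings _2_2 and _2_1, where Apoe was highest, to 29.0 in _3. Both endings lay between these extremes. Cx3cr1 was 38.2 against 43.4 and Trem2 26.1 against 22.1 UMIs per 10000 in endings _2 and _4, but these genes and P2ry12 are the 3 that the rule for microglia used, so their levels are a description.

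Spp1 was present in a small minority of microglia of both endings. At least 1 UMI was seen in 190 of 3556 microglia of ending _2, or 5.34% (4.63 to 6.13), and in 184 of 3196 of ending _4, or 5.76% (4.97 to 6.62). Thinned to 2000 UMIs, the shares were 3.19% (2.63 to 3.84) and 3.19% (2.59 to 3.87). In T cell marker cells, which serve as background, 9 of 258 cells of ending _2 held an Spp1 UMI, or 3.49% (1.61 to 6.52), and 2 of 148 cells of ending _4, or 1.35% (0.164 to 4.80). The microglial share thus lay inside the background interval in ending _2 and above it in ending _4, so cells with more UMIs are described further on. The summed Spp1 level of T cell marker cells was 0.208 UMIs per 10000 in ending _2 and 0.0218 in ending _4, below that of microglia. The order of the endings depended on the weighting of cells. Summed, Spp1 was 2.82 UMIs per 10000 in ending _2 and 3.51 in ending _4, a log2 ratio of -0.31 (-0.36 to -0.27), whereas the mean of the per-cell levels was 1.93 in ending _2 and 1.62 in ending _4. A single cell of ending _4 held 1418 of its 7959 Spp1 UMIs, and the highest cell of ending _2 held 703 of 6617.

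Spp1 split the aged table in the same place as Apoe, at 8.14 and 5.94 UMIs per 10000 in the endings _2_1 and _2_2 and from 0.0151 to 0.0225 in the other 3. L7 held 1.67 and L8 held 0.643, a log2 ratio of 1.38 (1.10 to 1.67), opposite in sign to that of the endings. A single cell held 183 of the 277 Spp1 UMIs of L7, and the means of the per-cell levels were 0.552 in L7 and 0.502 in L8. No direction of Spp1 between column groups is read from sums that rest on so few cells.

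Beyond Apoe, the microglia of the 2 endings were closely alike. Of 1706 genes with at least 1 UMI per 10000 in either ending, 6 differed by 2-fold or more (0.352%), 3 higher and 3 lower in ending _2, and the median log2 ratio was 0.02. Among the 268 genes with 5 UMIs per 10000 or more, only Apoe passed 2-fold. The other 5 genes were lower in level, and those described below were chosen for naming after their values were seen. By comparison, 8 of 1818 genes (0.44%) passed 2-fold between L7 and L8. It was 18 genes (1.02%) between ending _2 and L7, 25 (1.36%) between ending _2 and L8, 25 (1.41%) between ending _4 and L7, and 24 (1.31%) between ending _4 and L8. By this count the 2 endings were the closest pair of the table, but L7 and L8 rest on fewer cells.

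Fkbp5, which encodes a glucocorticoid-induced co-chaperone, had 1.14 UMIs per 10000 in ending _2 and 0.440 in ending _4, a log2 ratio of 1.37 (1.26 to 1.48). It was also higher in L7 (1.26) than in L8 (0.512). In the aged table it ran from 0.415 to 1.28, so that the values of both endings occurred there as well. Ifi27l2a, an interferon-induced gene whose counts may be shared with a neighbouring paralog, had 2.57 UMIs per 10000 in ending _2 and 1.16 in ending _4, a log2 ratio of 1.15 (1.08 to 1.21), and 1.58 in L7 against 1.02 in L8. Its range over the aged table, 0.363 to 6.51, was wider than either difference. Gm10076, a noncoding gene model, had 0.818 in ending _2 and 1.77 in ending _4, but 0.526 in L7 and 0.262 in L8, so its direction was opposite in the prefixed columns.

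Gmfg lies on chromosome 7, as Apoe does. The gene, which encodes a regulator of actin branching (chromosome 7, positions 28437447 to 28448233 of GRCm38), had 2.58 UMIs per 10000 in ending _2 and 1.27 in ending _4, a log2 ratio of 1.02 (0.95 to 1.08). L7 held 2.48 and L8 1.30, against 1.34 to 1.39 in the aged table. Ending _2 and L7 thus stood above the 7 other column groups, which lay close together.

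A milder limit of 1.5-fold, chosen after few genes had passed 2-fold, was met by 12 genes (0.703%), 8 higher and 4 lower in ending _2. Tmem160, a mitochondrial membrane protein gene (chromosome 7, positions 16452779 to 16455494), had 1.61 UMIs per 10000 in ending _2 and 0.933 in ending _4, and 1.77 in L7 against 0.874 in L8. In the aged table it stayed between 1.01 and 1.09. Fxyd5, which encodes a modulator of the sodium pump (chromosome 7, positions 31032722 to 31042481), had 1.30 and 0.728 UMIs per 10000 in endings _2 and _4, and 1.12 in L7 against 0.831 in L8. Unlike Gmfg and Tmem160, it varied over the aged table, from 0.150 to 1.23.

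The genes were set out by their distance from Apoe. A position on GRCm38 was found for 1693 of the 1706 genes. Within 20 Mb of Apoe (chromosome 7, positions 19696109 to 19699188), a window set after these genes were seen, 4 of 38 other genes passed 1.5-fold (10.5%), among them Tmem160, Fxyd5 and Gmfg. On the rest of chromosome 7 it was 1 of 91 genes (1.10%), and on other chromosomes 6 of 1563 (0.384%). Between L7 and L8 the shares were 5 of 38 (13.2%), 2 of 91 (2.20%) and 30 of 1563 (1.92%). Past 1.5-fold in the same direction in both pairs were 3 of the 38 genes, 0 of the 91 and 2 of the 1563. The split by position depended on the limit. At 2-fold, 2 of the 38 genes passed between the endings and 1 between L7 and L8, and 0 passed in both. At 1.2-fold the shares were 18.4%, 8.79% and 5.50% between the endings. Between L7 and L8 they were 23.7%, 29.7% and 22.5%, without an excess near Apoe. In the same direction in both pairs they were 10.5%, 4.40% and 2.69%.

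The pairs were also set side by side over all positions. Of the 12 genes past 1.5-fold between the endings, 10 had the same sign between L7 and L8, and 6 passed 1.5-fold there in the same direction, which is 50% of the 12 and 13.6% of the 44 (2.42% of 1818 genes) that passed between L7 and L8. Among them were Apoe, lower in ending _2 and L7, and Fkbp5, Ifi27l2a, Gmfg and Tmem160, higher in both. Abca1, the cholesterol exporter that loads lipid onto apolipoproteins, had 4.89 UMIs per 10000 in ending _2 and 3.22 in ending _4, a log2 ratio of 0.60 (0.56 to 0.64), and 4.89 in L7 against 3.30 in L8.

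**Figure D4:**
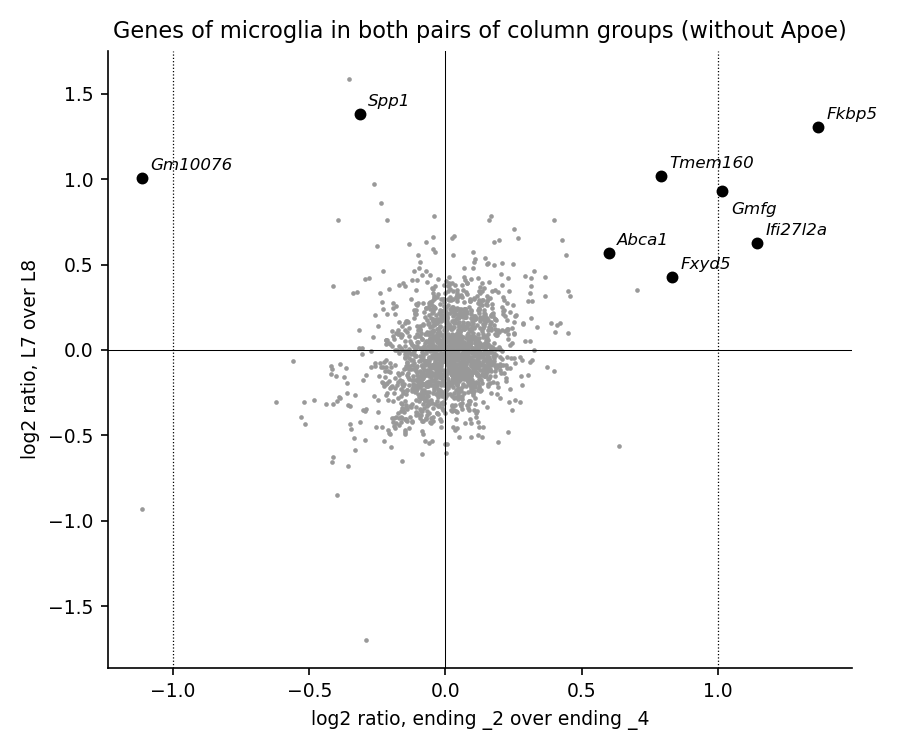
Log2 ratio of each gene in microglia between ending _2 and ending _4 (horizontal) and between L7 and L8 (vertical), 1 point per gene with at least 1 UMI per 10000 in either ending, without Apoe; dotted lines mark 2-fold. Most genes lie near 0 on both axes, with Fkbp5, Ifi27l2a, Gmfg and Tmem160 at the upper right, and Gm10076 differing in sign between the axes; Spp1 also does so in these sums, which rest on few cells.

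No pathway list moved as a whole past 2-fold. Of the lists tested, only the activated, lipid and interferon lists held a member past it, against 0.352% of all genes, and in the first 2 this member was Apoe itself. Of the 20 homeostatic microglia genes 0 passed, 13 ratios were negative, and the median log2 ratio was -0.09. The negative ratios include those of P2ry12 and Cx3cr1, which the rule for microglia used. In this list P2ry13, a purine receptor, was at 3.70 UMIs per 10000 in ending _2 and 4.79 in ending _4, and Fcrls, an Fc receptor-like gene, at 8.42 and 6.19. Of the 14 tested genes of activated microglia of white matter and disease, Apoe was the only member past 2-fold, and the list's median log2 ratio was 0.12. Ccl6, a chemokine, had the largest positive ratio of the list, at 2.80 UMIs per 10000 in ending _2 and 2.05 in ending _4. Its log2 ratio was 0.45 (0.40 to 0.50). Ctsd, the protease cathepsin D, was at 67.5 and 59.7 in endings _2 and _4. The lipid transport and storage list had 10 genes tested and a median of 0.01. Next to Abca1, its exporter Abcg1 was at 1.17 UMIs per 10000 in ending _2 and 0.889 in ending _4, a log2 ratio of 0.40 (0.32 to 0.48), and Lpl, the lipoprotein lipase, at 1.88 and 2.32. None of the 14 cholesterol synthesis genes reached 1 UMI per 10000 in either ending.

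The interferon list had 4 genes tested, all with positive ratios, and a median log2 ratio of 0.38. Ifi27l2a was its only member past 2-fold. Ifitm3, a membrane protein that restricts virus entry, had 1.26 UMIs per 10000 in ending _2 and 0.810 in ending _4, but 0.786 in L7 and 1.16 in L8. The lysosome list (17 genes) had a median of 0.10, the complement list (7 genes) 0.13, MHC class I (6 genes) 0.11, MHC class II (2 genes) 0.13, Trem2 and Tyrobp signalling (6 genes) 0.06, glycolysis (9 genes) 0.03, the nuclear-encoded respiratory chain (12 genes) 0.02, cytokines and chemokines (6 genes) 0.01, and immediate early genes (4 genes) -0.04. Each had 0 members past 2-fold.

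Markers of other cells were present in microglia of both endings. The summed levels were 6.29 and 8.03 UMIs per 10000 for the choroid plexus list in endings _2 and _4, nearly all from Ttr (6.12 and 7.83), which encodes the plasma carrier transthyretin, and 4.47 and 5.23 for the astrocyte list. Endothelial markers summed to 0.487 and 0.776, oligodendrocyte markers to 1.69 and 1.53, and T cell markers to 0.265 and 0.211. Of the border-associated macrophage list, 8 of 8 members in ending _2 and 7 of 8 in ending _4 stood under 0.05 UMIs per 10000. High in the markers of another class were 86 microglia (2.42%) in ending _2 and 106 (3.32%) in ending _4. Without them the same 6 genes passed 2-fold.

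Among cells that met the microglia rule, a state rich in Spp1 was found in both endings at similar shares. Microglia with at least 3 Spp1 UMIs numbered 84 in ending _2, or 2.36% (1.89 to 2.92), and 77 in ending _4, or 2.41% (1.91 to 3.00). With a microglia limit of 20 UMIs per 10000 the shares were 2.52% and 2.60%, and with 50 they were 1.61% and 1.56%. Outside the rule lay 23 of 107 cells with 3 or more Spp1 UMIs in ending _2 and 32 of 109 in ending _4. Of these, 12 and 9 fell in no class, and none entered the shares. The Spp1-high microglia were compared with the microglia of the same ending that held 0 Spp1 UMIs, 3366 in ending _2 and 3012 in ending _4, as a description of cells within 1 group. The Spp1-high cells were deeper, with a median of 10434 UMIs against 6073.5 in ending _2 and 11797 against 6379 in ending _4, and the part of depth in this comparison was not tested. Spp1 itself chose the cells and was left out. In ending _2, 98 of 1823 genes (5.38%) were at least 2-fold higher and 217 (11.9%) lower in the Spp1-high cells. In ending _4 it was 85 of 1798 genes (4.73%) higher and 184 (10.2%) lower. Many of the higher genes entered only through the Spp1-high cells. Among genes with at least 1 UMI per 10000 over all microglia of the ending, a limit chosen after seeing the data, 41 of 1632 (2.51%) were higher and 210 (12.9%) lower in ending _2, and 36 of 1641 (2.19%) higher and 176 (10.7%) lower in ending _4.

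Lpl, which encodes lipoprotein lipase, was higher in the Spp1-high microglia of both endings. Lpl was at 22.8 UMIs per 10000 in Spp1-high against 0.851 in Spp1-negative microglia of ending _2, and at 24.1 against 1.14 in ending _4. Lgals3, which encodes the lectin galectin-3, was at 4.95 against 0.202 and at 6.66 against 0.276, and Cst7, the protease inhibitor cystatin F, at 5.64 against 0.496 and at 3.62 against 0.266. Their log2 ratios lay between 3.51 and 4.74 in ending _2 and between 3.77 and 4.59 in ending _4. Over all microglia of endings _2 and _4, Lgals3 was at 0.414 and 0.596 and Cst7 at 0.739 and 0.438 UMIs per 10000. Lgals3 and Cst7 were thus below 1 UMI per 10000 and entered this comparison only through the Spp1-high cells.

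The chemokine genes Ccl3 and Ccl4 reached higher levels in ending _2. Ccl3 was at 18.3 UMIs per 10000 in Spp1-high against 0.615 in Spp1-negative microglia of ending _2 and at 10.1 against 0.925 in ending _4, and Ccl4 at 26.1 against 1.14 and at 12.1 against 1.58. Cd74, the invariant chain of MHC class II, was at 9.41 against 0.411 in ending _2 and at 4.66 against 0.662 in ending _4. Over all microglia Cd74 was at 0.792 and 0.881 UMIs per 10000, so it too entered only through the Spp1-high cells. With 84 and 77 cells behind these sums, single cells can weigh heavily, and the difference between endings was not tested. Lyz2 (lysozyme), at 43.7 against 9.29 in ending _2 and 40.5 against 7.66 in ending _4, Ccl6, Cd52, Cstb and Mif were higher as well.

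Genes of the resting state were lower in the Spp1-high cells. Tmem119 was at 1.37 UMIs per 10000 in Spp1-high against 9.90 in Spp1-negative microglia of ending _2 and at 1.67 against 10.3 in ending _4. P2ry12 was at 3.34 against 18.8 and at 4.89 against 22.1, and Selplg, a selectin ligand gene, at 3.62 against 13.9 and at 5.20 against 15.8. Siglech and P2ry13 behaved alike, and Ttr, the choroid plexus marker, was at 1.30 against 6.34 in ending _2 and at 1.33 against 7.82 in ending _4. Higher in both endings were 65 genes, which is 66.3% of the 98 of ending _2 and 76.5% of the 85 of ending _4. Those 98 and 85 genes were 5.38% and 4.73% of the genes compared. Lower in both were 142 genes, 65.4% of the 217 and 77.2% of the 184, which were 11.9% and 10.2% of the genes compared. This overlap was counted without a limit over all microglia, so it includes genes that entered only through the Spp1-high cells.

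The lists were counted over genes with at least 1 UMI per 10000 over all microglia of the ending, so that no gene entered through the Spp1-high cells alone. Of the 22 measured genes of activated microglia, 11 passed this limit in ending _2 and 9 of them were at least 2-fold higher, against 2.51% of all genes. In ending _4, 13 passed and 11 were higher, against 2.19%. The median log2 ratio of the list was 1.29 in ending _2 and 1.45 in ending _4, against -0.23 and -0.24 over all genes. Members higher in both endings included Lpl, Lyz2, Ccl6, Cd63 (a tetraspanin of endosomes) and Ctsb (the protease cathepsin B).

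Of the 20 homeostatic genes 11 were lower in each ending, against 12.9% and 10.7% of all genes in endings _2 and _4, with medians of -1.02 and -1.03. Among the 11 were P2ry12 and Cx3cr1, which the rule for microglia used, so their part in this count is a description. Of 9 glycolysis genes 6 were higher in each ending, against 2.51% and 2.19% of all genes, with medians of 1.26 and 1.10. Against the same shares, lysosome genes were higher in 4 of 16 in ending _2 and 4 of 17 in ending _4. Lipid transport and storage genes were higher in 2 of 8 and 3 of 9. These counts overlap with the activated list. Its members Cd68, Ctsb and Ctsd were among the higher lysosome genes of both endings, and Ctsz among those of ending _2. Of the higher lipid genes, Lpl in both endings and Apoe in ending _4 also belong to the activated list. MHC class II had 2 genes past the limit in each ending and 0 past 2-fold, and its other members were below the limit. Both endings thus held microglia with high Spp1, high levels of the activated list and low levels of the homeostatic list, although they differed in Apoe.

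Apoe was higher in the Spp1-high cells of ending _4, whereas in ending _2 the comparison rested on few UMIs. In ending _4 it was at 397 UMIs per 10000 in Spp1-high against 60.5 in Spp1-negative microglia, a log2 ratio of 2.71, higher by more than the counting interval. In ending _2 the Spp1-high cells held 13 Apoe UMIs, or 0.140 per 10000 against 0.0286, a log2 ratio of 2.29 (1.30 to 3.18). That level remained under the 1 UMI per 10000 needed for a gene to be counted. The interval does not cover UMIs that cluster in single cells, and a microglial cell of ending _2 held up to 4 Apoe UMIs. The ratio in ending _2 is therefore not read as a difference in expression.

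**Figure D5:**
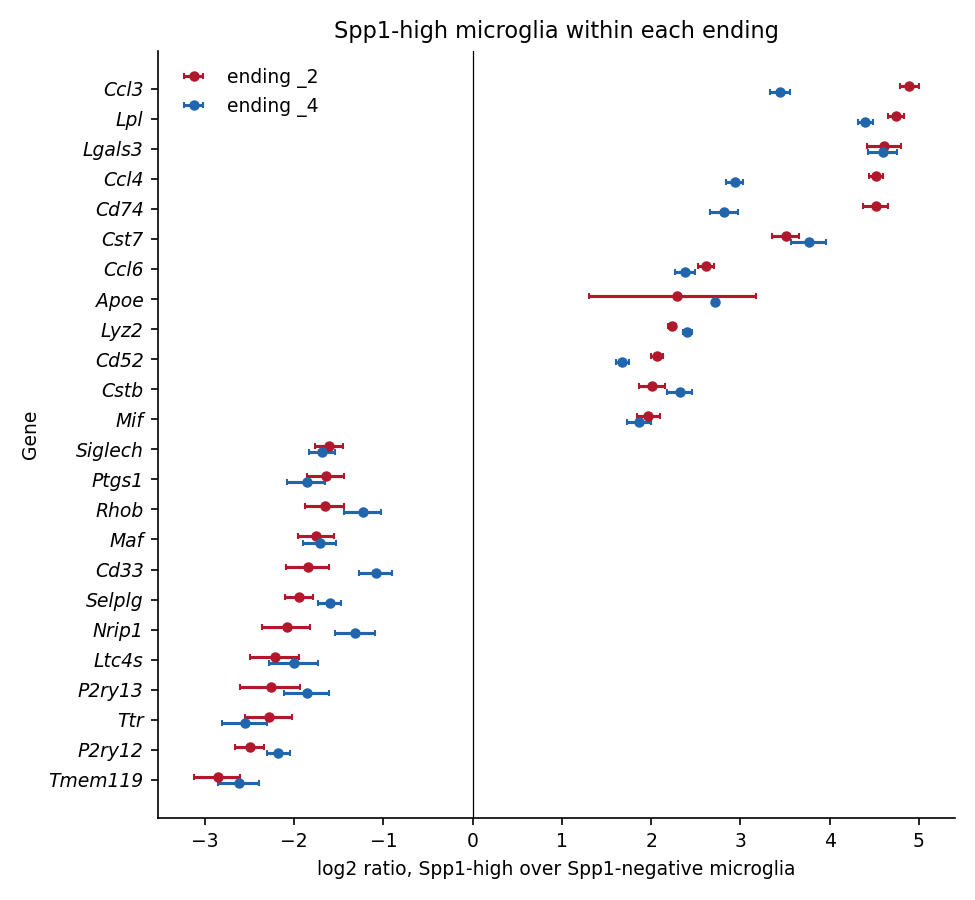
Log2 ratio of Spp1-high (3 or more Spp1 UMIs) over Spp1-negative microglia within ending _2 (red) and ending _4 (blue), with exact 95% counting intervals. Shown are 12 genes with positive and 12 with negative ratios, in the order of ending _2. Each reached at least 5 UMIs per 10000 on its higher side in either ending. Lgals3, Cst7 and Cd74 lay under 1 UMI per 10000 over all microglia, and Apoe of the Spp1-high cells of ending _2 rests on 13 UMIs. The genes keep their direction in both endings, and Ccl3, Ccl4 and Cd74 lie further to the right in ending _2 than in ending _4.

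Few genes differed between the endings in the other cell classes. Past 2-fold were 14 of 1935 genes in astrocyte marker cells (0.724%), 4 of 1924 in ependymal marker cells (0.208%), 12 of 1500 in choroid plexus marker cells (0.8%), 24 of 2070 in endothelial marker cells (1.16%), 13 of 2033 in neuroblast and neuron marker cells (0.639%) and 28 of 1443 in T cell marker cells (1.94%). At 5 UMIs per 10000 or more, Apoe was the only such gene in ependymal marker cells. In astrocyte marker cells it was joined by Id3, an inhibitor of transcription factor binding, at 6.37 UMIs per 10000 in ending _2 and 2.86 in ending _4. In endothelial marker cells the others were Rgcc, a cell cycle regulator, and Cdkn1a, the inhibitor p21, at 5.65 in ending _2 and 1.83 in ending _4. In choroid plexus marker cells Apoe was joined by Gm10076 and by Tmsb4x, which encodes an actin-binding peptide, at 10.1 in ending _2 and 4.88 in ending _4. T cell marker cells had only Ifi27l2a at this level, and neuroblast and neuron marker cells only Pcp4, a calmodulin-binding peptide gene, at 5.28 in ending _2 and 1.83 in ending _4.

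Outside microglia, Ifi27l2a and Gm10076 had the same sign between the endings as in microglia. The log2 ratio of Ifi27l2a was positive in all 6 classes, with an interval above 0 in 4 of them. Of these, astrocyte and ependymal marker cells held few UMIs, 20 and 55 in ending _2 and 7 and 20 in ending _4. In T cell marker cells Ifi27l2a was at 13.5 UMIs per 10000 in ending _2 and 5.50 in ending _4, and in choroid plexus marker cells at 1.44 and 0.567. Gm10076 was lower in ending _2 in all 6 classes, for example at 2.13 against 5.38 UMIs per 10000 in choroid plexus marker cells. These genes thus differed between the endings in several cell classes and not in microglia alone.

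Of the chromosome 7 genes, the log2 ratio of Gmfg was positive in all 6 classes, with an interval above 0 in 4 of them, and that of Tmem160 in 5 classes, with an interval above 0 in 4. Outside T cell marker cells Gmfg was low and rested on few UMIs. Endings _2 and _4 held 32 and 15 UMIs in astrocyte marker cells and 14 and 12 in neuroblast and neuron marker cells. In choroid plexus marker cells they held 49 and 27. Whether free RNA of microglia gave these UMIs was not tested. Gmfg was at 3.93 UMIs per 10000 in ending _2 and 2.52 in ending _4 in T cell marker cells, a log2 ratio of 0.64 (0.42 to 0.87). Tmem160 was at 2.74 in ending _2 and 2.09 in ending _4 in choroid plexus marker cells, a log2 ratio of 0.39 (0.25 to 0.53). Fxyd5 was at 6.28 and 6.13 in T cell marker cells of endings _2 and _4, with a log2 ratio of 0.03 (-0.12 to 0.19). In endothelial marker cells it was at 5.69 and 5.50, with a log2 ratio of 0.05 (-0.10 to 0.21). Its microglial difference was therefore not seen in these classes, which held more of it. Choroid plexus marker cells held little Fxyd5, 0.126 and 0.0523 UMIs per 10000, with a log2 ratio of 1.26 (0.44 to 2.15). Its ratio was negative only in astrocyte marker cells.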

How the data were processed

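Brain cells were counted on the 10x platform, and what was deposited are unnormalized UMI counts of genes in single barcodes. The submitters' processing notes name Cell Ranger 4, Trim Galore, FastQC, bcl2fastq and the build mm10. No label ties a column to a library for any of the 35151 columns of the 2 tables. Levels are UMIs summed over cells, per 10000, with exact Poisson intervals; shares have Clopper-Pearson intervals, and ratios exact conditional ones (95%). A gene was compared at 1 UMI per 10000 or more in either group and counted past 2-fold. Cells were thinned to 1000 and 2000 UMIs for shares. Doublets were not removed; microglia high in another class were left out as an alternative. Positions came from GENCODE M21 on GRCm38, the build mm10 names. The comparison was run on simulated counts without variation between cells and without true ratios near 2-fold. That run therefore does not bear on genes near the limit. Named genes were Apoe, P2ry12, Spp1, the rule's Cx3cr1 and Trem2, up to 10 with the largest ratio each way at 5 UMIs per 10000 or more, up to 4 members per list, and others stated as named after their values were seen. The members, the lists and the rules were chosen with earlier results of these data known. TMM scaling (edgeR 4.0.16) and median-of-ratios scaling (DESeq2 1.42.0) served only as alternatives. No sorted or plate-based cells were used. Genes absent from the table were not analysed here. A few genes among those counted are not reported here.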

Additional observations from a re-analysis of the deposited data

How the results depend on the processing

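Each ending is 1 group of cells, so the values carry counting error only. With a limit of 20 or 50 UMIs per 10000, microglia were 63.4% or 56.0% of ending _2 and 59.9% or 53.9% of ending _4, and among cells of at least 1000 UMIs they were 64.5% and 61.7%. Barcodes alone, without identical counts, would have called 63 cells copies. As a mean of per-cell levels, Apoe over all cells was 0.145 UMIs per 10000 in ending _2 and 65.2 in ending _4, and in microglia of ending _4 it was 65.9. In those microglia it was 82.3 and 62.8 at the limits of 20 and 50, 78.1 without cells holding 3 or more UMIs of another type's markers, and 78.4 without cells high in another class. Shares of microglia with an Apoe UMI, thinned to 1000 and 2000 UMIs, were 0.459% and 0.739% in ending _2 and 62.5% and 74.6% in ending _4, and for Spp1 2.47% and 3.19% in ending _2 and 2.19% and 3.19% in ending _4. With genes of at least 5 UMIs per 10000, 0 were higher and 1 lower in ending _2, and with no minimum 436 and 979, mostly genes of few UMIs. At 1.5-fold 8 were higher, and at 1.2-fold 45 were higher and 58 lower (both limits chosen after seeing the data). TMM and median-of-ratios scaling moved the median log2 ratio to 0.06 and 0.07 and kept the same 6 genes. Without cells holding 3 or more UMIs of another type's markers, Klf2 joined them, and the log2 ratio of Spp1 turned to 0.28. The same limit, used for the Apoe level of 78.1 above, left out most microglia. It removed 2254 of 3556 in ending _2 (63.4%) and 2187 of 3196 in ending _4 (68.4%). No paired analysis was possible because the columns carry no replicate numbers and no test was made. Leaving out each other group in turn was not run, since only 2 groups exist.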
